A study of Mus musculus with 24 samples.

Results

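Interferon-stimulated genes are the genes that a cell switches on after it meets an interferon. The set described here comprised 45 of the 13039 genes whose FPKM was 1 or more in 4 or more of the 24 libraries of a mouse skin RNA-seq study. It was taken from a list of 47 gene symbols, of which 45 had a row in the expression table, and all 45 passed that filter. Mx1 and Mx2 were not analysed here. FPKM is a count of fragments scaled by gene length and library size, so that levels can be set side by side between genes.

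The skin came from 24 mice in 6 groups of 4. Treatment mice were injected daily with dihydrotestosterone (DHT, the androgen behind pattern hair loss) and had an extract of Hanlianxiang (HLX, a traditional Chinese medicine formula) put on the skin. Model mice were injected with DHT and had the solvent alone on the skin, and control mice were injected with saline and had the solvent. Each group was sampled at day 15 and at day 10, so treatment and model mice shared the DHT and all 3 groups shared daily injections and a topical liquid. Each library held poly(A) RNA of 1 mouse. The strain, sex and age of the mice and any processing batch were not given in the sources used here.

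Type I interferons, such as interferon beta, bind the receptor pair Ifnar1 and Ifnar2, and interferon gamma binds Ifngr1 and Ifngr2. The receptors signal through Jak kinases to STAT proteins. Stat2 and Irf9 act together at the interferon-stimulated response element (ISRE) in promoters, and interferon gamma acts through the gamma-activated site (GAS). In skin, keratinocytes, fibroblasts and immune cells such as macrophages can all run this programme, and bulk RNA cannot tell more cells of a type from more RNA per cell.

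Sequences of the promoter sites are shown because they are the feature that ties many of these genes to the pathway. RefSeq promoter windows of 300 bases, with 250 before and 50 after each annotated start (build GRCm38.p6), were matched by symbol for 36 of the 45 members. The core of the ISRE was searched on both strands as GAAA, any 2 bases and GAAA again, with overlapping matches allowed, and 19 of the 36 members (52.8%) held it, against 1079 of 27025 genes (3.99%) with a window. A strict form of the GAS was searched, TTCCNGGAA, a palindrome apart from its middle base, and looser forms were not. A window without this match may therefore still hold a GAS. This strict form was held by 3 of 36 members (8.33%), against 1.35% of all genes. Those 3 were Ifit2, Gbp7 and Bst2, and the windows of Gbp7 and Bst2 held both motifs. By role, the ISRE core lay in 6 of 6 matched GTPases, 3 of 4 IFIT genes, 3 of 5 OAS genes, 5 of 11 sensors and antiviral effectors, 1 of 3 genes of the ISG15 group, 1 of 4 transcription factors and 0 of 3 antigen processing genes. In the lines that follow, capitals mark the core on either strand (GAAA repeats, or TTTC repeats for its reverse complement), and 12 bases are kept on each side.
Ifit1 (chr19:34640773-34640825, plus strand): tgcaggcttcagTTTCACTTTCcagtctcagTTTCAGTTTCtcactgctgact
Ifit3 (chr19:34583361-34583428, plus strand): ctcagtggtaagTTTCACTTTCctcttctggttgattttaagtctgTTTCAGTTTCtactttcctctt
Ifit3b (chr19:34607757-34607824, plus strand): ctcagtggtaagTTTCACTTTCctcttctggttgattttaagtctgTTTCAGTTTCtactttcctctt
Oas1a (chr5:120907518-120907557, minus strand): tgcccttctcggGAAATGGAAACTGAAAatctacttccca
Oas3 (chr5:120777713-120777746, minus strand): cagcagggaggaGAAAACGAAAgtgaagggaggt
Isg15 (chr4:156200863-156200908, minus strand): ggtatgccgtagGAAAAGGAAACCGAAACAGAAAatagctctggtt
Stat2 (chr10:128270264-128270297, plus strand): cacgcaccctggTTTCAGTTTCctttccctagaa
Rsad2 (chr12:26456551-26456584, minus strand): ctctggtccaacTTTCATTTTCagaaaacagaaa
Gbp2 (chr3:142620592-142620625, plus strand): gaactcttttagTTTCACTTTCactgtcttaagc
Gbp7 (chr3:142530271-142530304, plus strand): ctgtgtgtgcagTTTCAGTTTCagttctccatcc
Irgm1 (chr11:48871423-48871462, minus strand): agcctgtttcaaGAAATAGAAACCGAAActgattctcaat
Bst2 (chr8:71537575-71537614, minus strand): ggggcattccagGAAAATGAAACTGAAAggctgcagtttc

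The sites printed for Ifit1, Ifit3, Ifit3b, Isg15, Rsad2 and Bst2 begin at bases 104, 156, 188, 78, 120 and 130 before the start of their genes. Ifit3 and Ifit3b, which are near copies of each other, carried the same letters, as did Oas1a and Oas1g. Isg15 had 3 overlapping matches within 1 stretch. A match is a run of letters and not a measured binding site. The 19 members with the core and the 17 matched members without it had median log2 differences of -1.09 and -0.92 between treatment and model skin at day 15. For model against control these medians were 0.95 and 0.78 at day 15, and 0.93 and 0.55 at day 10. The medians of members with and without the core had the same sign in each of these comparisons, and no test was made between them.

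Differences in this text are log2 differences on the scale log2(FPKM + 1), tested with limma over all 24 libraries with 1 mean per group. A gene is called when its p-value, adjusted over all 13039 genes by the Benjamini-Hochberg method, is under 0.05. Values of a group are listed for replicates 1 to 4 in that order. Depth was even, at 36688186 to 40710395 reads per library as recovered from the FPKM steps. Skin markers were present in every library, with summed FPKM of 841 to 2646 for 6 keratinocyte genes and 1970 to 9612 for 5 fibroblast genes. Some libraries stood apart. Kidney markers summed to 17.2 to 24.9 FPKM in the model and 25 to 28.6 FPKM in the control libraries of day 10, and to at most 0.129 FPKM in the treatment libraries of day 10 and in all libraries of day 15. In 4 treatment libraries (replicates 1, 2 and 4 of day 15 and replicate 3 of day 10), transcripts of 4 Y-linked genes stood at 49.8% to 74.5% of the median over libraries, and in the others at 87.5% or more. In model against control skin of day 10, the 3 kidney markers tested were all called lower and the sums did not overlap. Since the kidney transcripts follow the groups at day 10, they and the group cannot be told apart in any comparison of 2 groups at that day, or of day 15 with day 10 in model and control skin. The part of the low Y-linked transcripts was not tested, and counts without those 4 treatment libraries are given beside the comparisons.

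In treatment against model skin at day 15, 26 of the 45 interferon-stimulated genes were called lower and none higher, against 9.32% of all tested genes called lower. All 45 had a negative difference, with a median of -1.03 and a range of -2.23 to -0.16, while the median over all tested genes was -0.02. In 11 members every treatment library lay below every model library, a pattern seen in 4.79% of all genes. These were Ifit1, Ifit2, Ifit3b, Oas2, Samd9l, Eif2ak2, Gbp7, Ifi44, Cmpk2, Ifih1 and Stat2. At day 10 no member was called between treatment and model skin in either direction by limma, none had an unadjusted p under 0.05, and voom on the recovered reads called 0 as well, as did the fit without the 4 libraries low in Y-linked transcripts. Of all genes, 0.192% were called there, and the median of the members was -0.02, with 21 positive and 24 negative differences. The change of the treatment-model difference between the days had a median of -1.02 over the members. None was called for it by limma or voom, where 0.0997% of all genes were called, 28 had an unadjusted p under 0.05, and the smallest adjusted p was 0.119, for Samd9l.

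The count at day 15 depended on how the spread was estimated and on single libraries. A fit of only the 8 treatment and model libraries called 0 members and 0.0% of all genes. The median standard deviation of the members on the log2 scale was 0.69 in treatment, 0.82 in model and 0.44 in control libraries of day 15, against 0.26, 0.21 and 0.16 at day 10. Without treatment replicate 1, treatment replicate 3, model replicate 3 or model replicate 4 the count was 14, 17, 14 and 15, and 14 of the 26 calls were present in each of the 8 fits that left out 1 library. The calls of Gbp9, Ifi35, Irf9, Isg15, Oas1g, Parp9, Parp14, Rsad2, Rtp4, Trim30a, Usp18 and Xaf1 were each lost in 2 to 5 of these fits. Without treatment libraries low in Y-linked transcripts, 39 members were called lower at day 15 and the median was -1.71. That fit kept 1 treatment library of day 15, replicate 3, which was the lowest of its group in 35 of 45 members, and assumed that it varied like the other groups.

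In model against control skin at day 15, 16 of 45 interferon-stimulated genes were called higher and none lower, against 4.23% of all genes called higher. At day 10, 4 members were called higher, Oas2, Oasl2, Oas1a and Trim30a, a share close to the 6.79% of all genes called higher. The model libraries of that day also had less of the kidney transcripts than the control libraries. All 45 differences were positive at both days, with a median of 0.88 at day 15 and 0.67 at day 10. Separation of the single libraries was wider at day 10. Every model library was above every control library in 3 of 45 members at day 15 (7.89% of all genes) and in 37 of 45 at day 10 (12.5% of all genes). The model libraries of day 15 were wide apart and those of day 10 were close together. A fit of only the groups compared called 1 member at day 15, Oas2, where it called 5.55% of all genes, and 40 members at day 10, where it called 19.0% of all genes. The change of the difference between days had a median of 0.22, and limma called no member and 0.0% of all genes for it. No member had an unadjusted p under 0.05 there, and voom called 0.

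Single libraries moved these counts too. At day 15, leaving out a single model library gave 2 calls for replicate 3, 3 for replicate 4 and 31 for replicate 1. Leaving out a control library instead gave 3 for replicate 2, 1 for replicate 3 and 2 for replicate 4. At day 10 the count was 1 or 2 without any 1 of the libraries other than model replicate 1, without which it was 4. Oas2, the only member called in all of these fits at day 15 and the only one at day 10, had an adjusted p of at most 0.0316 at day 15 and 0.0219 at day 10. Every other model-control call of day 15 was lost in 1 to 6 of the 8 fits. Those of Stat2, Ifih1, Eif2ak2, Samd9l, Cmpk2 and Dtx3l were each lost in 5.

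Between treatment and control skin, limma called members at day 10 and not at day 15, while voom called none at either day. At day 15 no member was called by limma or voom and 2 had an unadjusted p under 0.05, with a median difference of -0.14, where 0.314% of all genes were called. At day 10, limma called 3 members higher, Oas2, Oasl2 and Oas1a, against 2.2% of all genes called higher, and each of these calls was lost with voom. The median at day 10 was 0.64, with 44 of 45 differences positive, and in 36 members every treatment library was above every control library, against 11.4% of all genes. A fit of only these 8 libraries called 36 members and 17.1% of all genes. Of the 3 calls, none was present in every fit that left out 1 library (0 to 3 members). In the fit without the 4 libraries low in Y-linked transcripts the count was 2 at day 10 and 0 at day 15, where the median was then -0.80 with treatment replicate 3 alone. The comparisons share libraries, so that treatment-model and model-control differences of a day rest on the same model libraries, and model-control and treatment-control differences on the same control libraries.

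**Figure D1:**
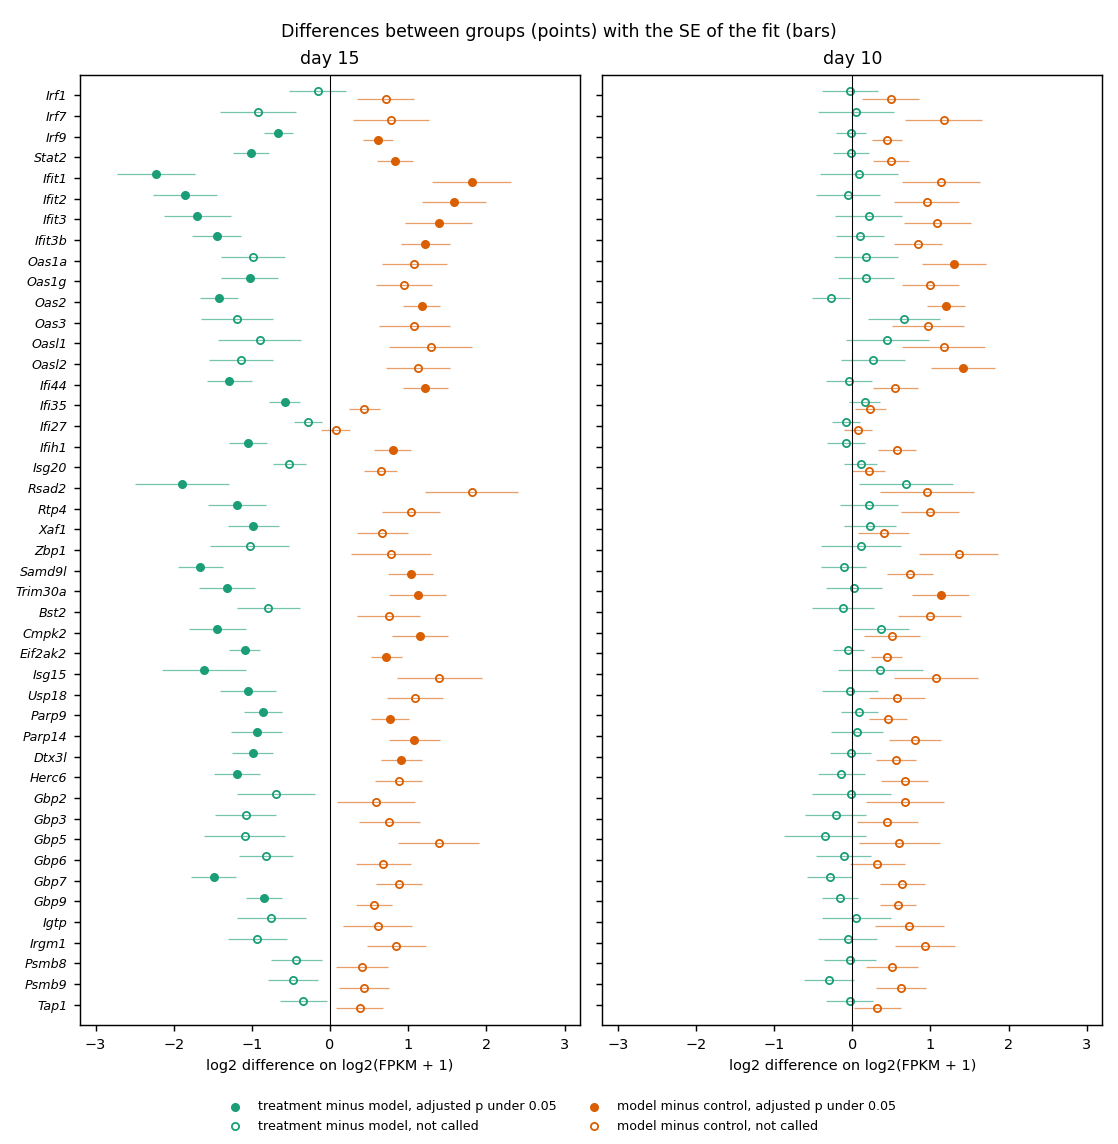
Log2 difference (x axis, on log2(FPKM + 1)) of each of 45 members (y axis, grouped by role) for treatment minus model in green and model minus control in orange, at day 15 on the left and day 10 on the right. Points are estimates, bars the standard error of the fit, and filled points have an adjusted p under 0.05. At day 15, 26 green points are filled and all 45 lie below 0, while at day 10 none is filled and they scatter around 0.

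Between day 15 and day 10, 9 of 45 members were called higher at day 15 in control skin, where voom called 0, against 1.48% of all genes, with a median of 0.92, and 32 had every library of day 15 above every library of day 10, against 7.01% of all genes. In model skin 23 of 45 were called higher, against 1.62% of all genes, with a median of 1.04, and 25 had every library of day 15 above every library of day 10, against 2.65% of all genes. In treatment skin none was called by limma or voom, against 9.64% of all genes, and 6 had an unadjusted p under 0.05, with a median of -0.06. Gbp6 alone had every treatment library of day 15 above every one of day 10, against 4.65% of all genes. A fit of only the 8 libraries called 31 members in control skin, where it called 14.9% of all genes, and 0 in model skin, where it called 0.0614%. Without 1 library the count ran from 0 to 15 in control skin, where leaving out control replicate 1, 2 or 4 of either day gave 0. It ran from 0 to 38 in model skin, with 0 without model replicate 3 of day 15. The libraries of model and control skin at day 10 are those with kidney transcripts.

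The members were high or low in the same mice. In model skin of day 15, replicates 3 and 4 were the 2 highest libraries for 44 of 45 members, and replicate 3 was the highest for 42. In treatment skin of day 15, replicates 2 and 4 were the 2 highest for 44 members, and replicate 3 was the lowest for 35. In control skin of day 15, replicate 1 was the highest for 36 and replicate 3 the lowest for 41. Set against the control mean of day 10, the median member was 0.37, 1.31, 0.14 and 1.32 log2 units higher in the 4 treatment libraries of day 15. It was 1.03, 1.25, 2.78 and 2.33 higher in the model libraries and 1.22, 0.93, 0.34 and 0.88 higher in the control libraries of that day. Model replicates 3 and 4 lay above all other libraries, while model replicates 1 and 2 lay within the range of the treatment and control libraries. At day 10 the median member stood at 0.34, 1.02, 0.71 and 0.58 in treatment libraries, at 0.54, 0.86, 0.88 and 0.61 in model libraries and at 0.08, 0.1, -0.07 and -0.12 in control libraries. All 8 libraries from DHT-injected mice of day 10 were above the 4 control libraries.

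**Figure D2:**
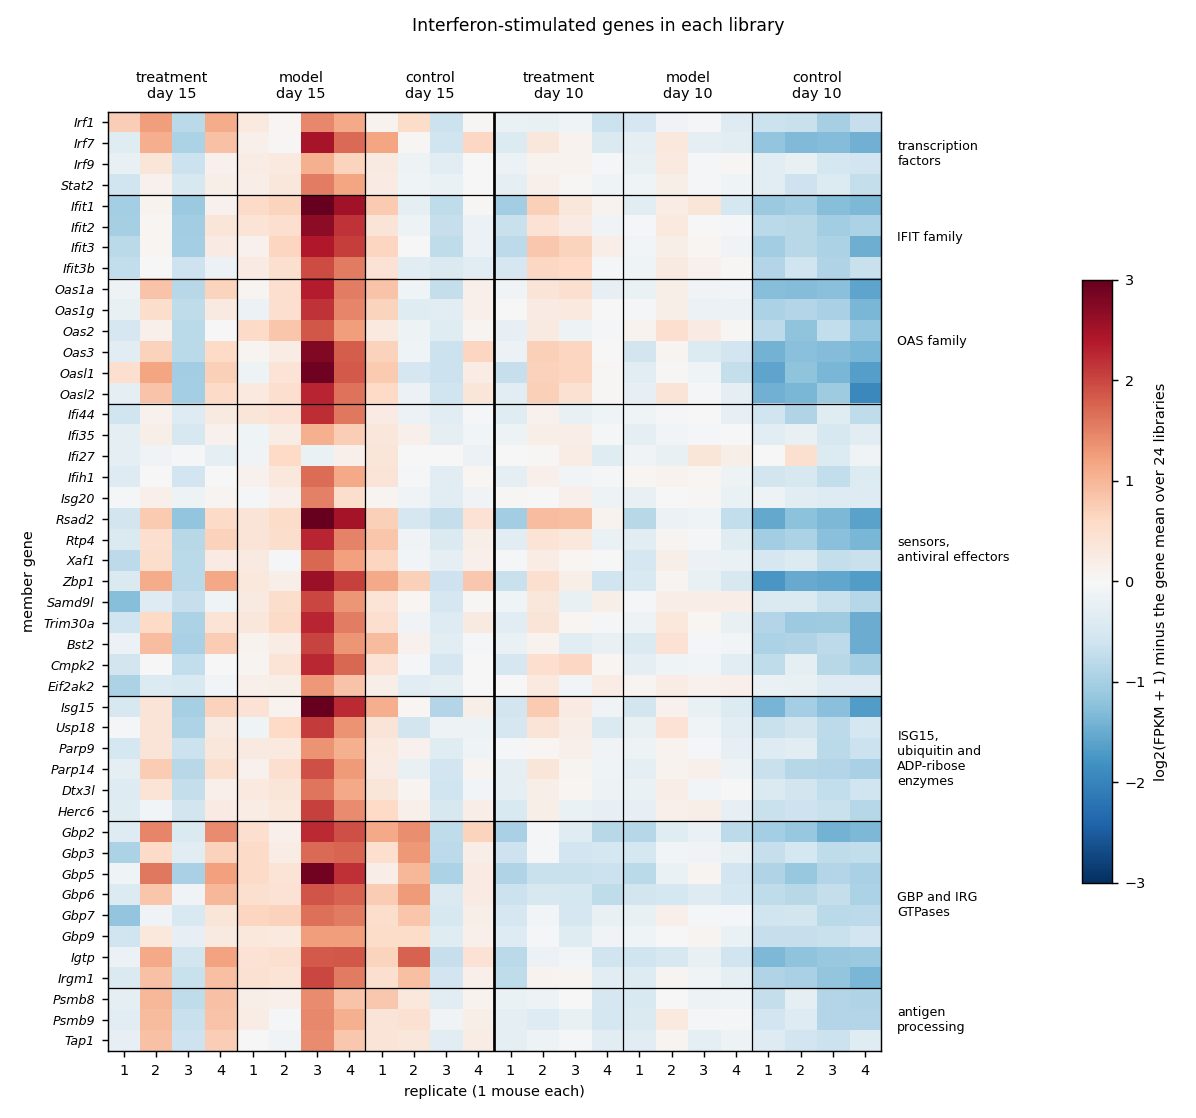
Level of 45 members (y axis, grouped by role) in 24 libraries (x axis, replicates 1 to 4 of each group, day 15 on the left of the thick line), as log2(FPKM + 1) minus the mean of the gene over all libraries. Red is above and blue below the mean. Model replicates 3 and 4 of day 15 are red in nearly every row, and the 4 control libraries of day 10 are blue in nearly every row.

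The transcription factors of the set were Stat2 and Irf9, which act together at the ISRE, Irf7, the factor that amplifies type I interferon production, and Irf1, which drives many genes that respond to interferon gamma. Of these 4, 2 were called lower in treatment than in model skin at day 15 and the same 2, Stat2 and Irf9, were called higher in model than in control skin. Stat2 had 4.76, 8.5, 5.22 and 8.84 FPKM in treatment skin, 9, 9.97, 24.2 and 18.9 FPKM in model skin and 9.38, 6.95, 6.66 and 7.79 FPKM in control skin at day 15. Every treatment library was below every model library, and model replicates 3 and 4 were the highest. Stat2 was called lower in treatment than in model skin, with a difference of -1.01 (SE 0.23, adjusted p = 0.0063), and the difference between model and control skin was 0.83 (SE 0.23, adjusted p = 0.0302). At day 10, Stat2 had 6.27, 8.7, 8.01 and 6.93 FPKM in treatment skin, 7, 8.81, 7.52 and 7 FPKM in model skin and 5.98, 4.68, 5.53 and 4.29 FPKM in control skin. At that day treatment and model libraries overlapped, and both lay above all control libraries. The difference between model and control skin at day 10 was 0.49 (SE 0.23, adjusted p = 0.155).

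Irf7 reached higher levels and spread further. It had 17.1, 48.6, 11.1 and 41.9 FPKM in treatment skin, 24.7, 22.7, 129 and 74.8 FPKM in model skin and 51.6, 22.8, 14.3 and 34.8 FPKM in control skin at day 15. Ranges of treatment and model skin overlapped, since treatment replicates 2 and 4 lay above model replicates 1 and 2. Irf7 differed by -0.92 between treatment and model skin (SE 0.49, adjusted p = 0.181), which was not called, and the difference between model and control skin was 0.78 (SE 0.49, adjusted p = 0.286). At day 10, Irf7 had 16.5, 28.7, 24 and 16.3 FPKM in treatment skin, 17.9, 28.1, 18.3 and 17.6 FPKM in model skin and 9.23, 8.31, 8.43 and 7.61 FPKM in control skin. The control libraries lay below all others there, and model replicate 2 stood apart from the other 3 model libraries. Irf1 had 17.3, 25.2, 5.27 and 22.8 FPKM in treatment skin, 12.4, 10.4, 28.8 and 23.3 FPKM in model skin and 10.9, 15.1, 6.01 and 10.3 FPKM in control skin at day 15. Treatment and model libraries of Irf1 overlapped, with group means of 17.6 ± 8.9 and 18.7 ± 8.8 FPKM (SD, n = 4 each) and a difference of -0.16 (SE 0.36, adjusted p = 0.785). At day 10, Irf1 had 8.65, 8.42, 9.1 and 6.03 FPKM in treatment skin, 6.7, 9.15, 9.75 and 7.43 FPKM in model skin and 6, 5.92, 4.5 and 5.78 FPKM in control skin. Both DHT-injected groups lay above the control libraries, with a difference of 0.49 between model and control skin (SE 0.36, adjusted p = 0.369). Irf9 ranged from 6.95 to 15 FPKM in treatment, 13.5 to 25.3 FPKM in model and 9.09 to 14 FPKM in control skin of day 15.

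The IFIT proteins bind foreign RNA ends and block its translation. All 4 IFIT genes were called lower in treatment than in model skin at day 15, with a median difference of -1.77, and all 4 were called higher in model than in control skin, with a median of 1.49. The model-control calls of Ifit1, Ifit2, Ifit3 and Ifit3b were lost in 5, 5, 6 and 4 of the 8 fits without 1 library. All 4 were also lost in the fit of only the groups compared. Ifit1 had 2.57, 6.78, 2.3 and 6.89 FPKM in treatment skin, 9.78, 10.4, 67.6 and 40.1 FPKM in model skin and 11.3, 4.97, 3.23 and 6.34 FPKM in control skin at day 15. All 4 treatment libraries were below the lowest model library, and model replicates 3 and 4 were far above the other 2. Ifit1 was called lower in treatment than in model skin, with a difference of -2.23 (SE 0.50, adjusted p = 0.00598), a ratio of mean FPKM of 0.145, and the difference between model and control skin was 1.81 (SE 0.50, adjusted p = 0.0298). At day 10, Ifit1 had 2.49, 10.7, 8.16 and 6.67 FPKM in treatment skin, 4.81, 7.42, 8.17 and 4.01 FPKM in model skin and 2.33, 2.49, 1.97 and 1.81 FPKM in control skin. Treatment replicate 1 was at the level of the control libraries, while all 4 model libraries were above them. Neither difference at day 10 was called, with adjusted p of 0.97 for treatment against model and 0.133 for model against control skin.

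Ifit2 followed the same order. It had 2.98, 7.19, 2.83 and 9.21 FPKM in treatment skin, 9.47, 10.2, 49.7 and 34.8 FPKM in model skin and 9.28, 6.15, 3.92 and 6.06 FPKM in control skin at day 15. The model libraries lay above all treatment and all control libraries. Ifit2 was called lower in treatment than in model skin, with a difference of -1.85 (SE 0.41, adjusted p = 0.00566), and the difference between model and control skin was 1.59 (SE 0.41, adjusted p = 0.0222). At day 10, Ifit2 had 4, 9.75, 8.42 and 6.4 FPKM in treatment skin, 6.61, 8.65, 6.95 and 6.64 FPKM in model skin and 3.51, 3.47, 2.86 and 3.11 FPKM in control skin. Both DHT-injected groups were above the control group and overlapped each other, and the difference between model and control skin was 0.95 (SE 0.41, adjusted p = 0.125).

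Ifit3 and Ifit3b are near copies, and 51.2% of the 50-base windows of Ifit3 transcripts also occur in Ifit3b, so the split of reads between them is uncertain. Ifit3 had 4.8, 9.58, 4.03 and 11.1 FPKM in treatment skin, 10.2, 14.9, 52.7 and 42.2 FPKM in model skin and 15.1, 9.1, 5.05 and 7.98 FPKM in control skin at day 15. Treatment replicate 4, at 11.1 FPKM, was above model replicate 1, at 10.2 FPKM, so these groups overlapped. Ifit3 was called lower in treatment than in model skin, with a difference of -1.70 (SE 0.43, adjusted p = 0.0114), and the difference between model and control skin was 1.39 (SE 0.43, adjusted p = 0.0453). At day 10, Ifit3 had 4.94, 16.9, 15.2 and 10.7 FPKM in treatment skin, 8.66, 10.5, 9.68 and 8.55 FPKM in model skin and 3.94, 4.73, 4.26 and 2.69 FPKM in control skin. All treatment and model libraries were above all control libraries, with a difference of 1.30 between treatment and control skin (SE 0.43, adjusted p = 0.0863). Ifit3b stood lower, with 0.98, 2.27, 1.16 and 1.96 FPKM in treatment skin, 2.97, 3.67, 11.8 and 8.84 FPKM in model skin and 3.46, 1.68, 1.48 and 1.68 FPKM in control skin at day 15. Its treatment and model libraries did not overlap, and the difference between treatment and model skin was -1.45 (SE 0.31, adjusted p = 0.00429). At day 10, Ifit3b had 1.35, 4.15, 4.02 and 2.23 FPKM in treatment skin, 2.02, 2.99, 2.63 and 2.41 FPKM in model skin and 0.809, 1.21, 0.764 and 1.08 FPKM in control skin. The control libraries were below all others.

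The OAS family includes enzymes that sense double-stranded RNA and make the messenger that activates RNase L, and mouse Oasl1 restrains the translation of Irf7. These genes showed the largest model-control differences of any role at day 10, with a median of 1.18 over 6 genes and 3 called, and all 6 had every model library above every control library. Oas2 had 1.42, 2.76, 0.96 and 2.4 FPKM in treatment skin, 4.08, 5.06, 11.5 and 7.12 FPKM in model skin and 3.19, 2.05, 1.65 and 2.58 FPKM in control skin at day 15. The model libraries were above all treatment and control libraries. Oas2 was called lower in treatment than in model skin, with a difference of -1.42 (SE 0.24, adjusted p = 0.00106), a ratio of mean FPKM of 0.271, and the difference between model and control skin was 1.17 (SE 0.24, adjusted p = 0.00775). At day 10, Oas2 had 1.86, 3.12, 2.05 and 2.26 FPKM in treatment skin, 2.68, 3.83, 3.04 and 2.49 FPKM in model skin and 0.965, 0.469, 1.06 and 0.515 FPKM in control skin. Treatment and model libraries overlapped and both lay above all control libraries, by 0.93 for treatment (SE 0.24, adjusted p = 0.0395) and by 1.20 for model skin (SE 0.24, adjusted p = 0.00482). The call for treatment skin was lost in 7 of the 8 fits without 1 library and with voom, and that for model skin in none of them. Between treatment and model skin at day 10 the difference was -0.27 (SE 0.24, adjusted p = 0.729).

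The other OAS genes were less separated at day 15. Oasl2 ranged from 5.02 to 21.1 FPKM in treatment, 13.9 to 58.9 FPKM in model and 7.05 to 17.6 FPKM in control skin at that day. At day 10 it ranged from 8.86 to 19 FPKM in treatment, 9.15 to 14.9 FPKM in model and 2.21 to 4.81 FPKM in control skin, and it was called in both comparisons with control skin. Each of these 2 calls of Oasl2 was lost in 6 of the 8 fits without 1 library, and with voom. Oas1a was called in the same 2 comparisons. Its call was lost in 7 of the 8 fits without 1 library for model skin and in all 8 for treatment skin, and with voom in both. Of the 50-base windows of Oas1a, 57.6% also occur in Oas1g, which makes the split of their reads uncertain. Oas1g was called lower in treatment than in model skin at day 15, with a difference of -1.03, and the call was lost in 4 of the 8 fits without 1 library (adjusted p up to 0.175) and in 6 of 8 other settings. Oas3 and Oasl1 were not called in any comparison between treatments, with differences of -1.19 and -0.90 between treatment and model skin at day 15. The day 10 levels of Oas3 were 1.85 to 4.27 FPKM in treatment, 1.15 to 2.41 FPKM in model and 0.197 to 0.356 FPKM in control skin.

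**Figure D3:**
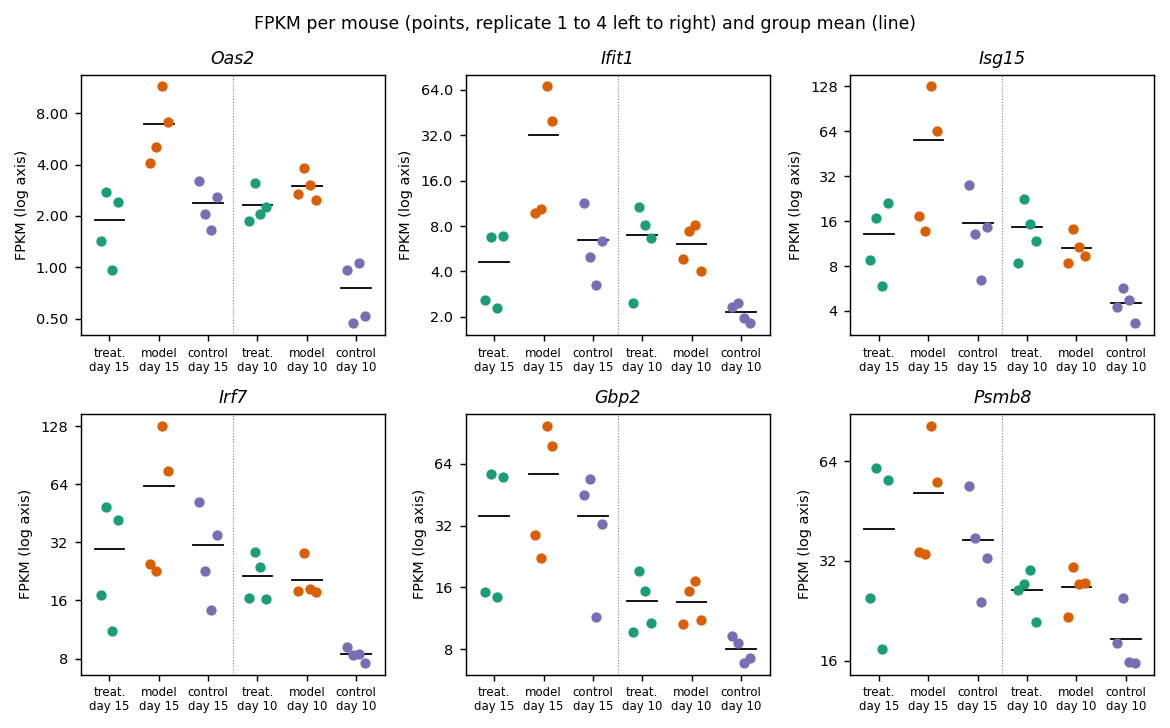
FPKM (y axis, log scale) of 6 members in each mouse (points, replicates 1 to 4 from left to right) and group mean (line), with day 15 on the left of the dotted line and treatment, model and control in that order. For Oas2 all model libraries of day 15 lie above the treatment libraries, whereas for Irf7, Gbp2 and Psmb8 treatment replicates 2 and 4 lie above model replicates 1 and 2.

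Sensors and antiviral effectors formed the largest role, with 14 members. At day 15, 10 were called lower in treatment than in model skin and 6 higher in model than in control skin. Ifih1, the cytosolic sensor MDA5 of long double-stranded RNA, had 4.68, 6.35, 4.01 and 6.52 FPKM in treatment skin, 7.17, 8.23, 22.8 and 15.3 FPKM in model skin and 8.71, 6.2, 4.91 and 6.76 FPKM in control skin at day 15. No treatment library reached the lowest model library, while control replicate 1 lay above model replicates 1 and 2. Ifih1 was called lower in treatment than in model skin, with a difference of -1.05 (SE 0.24, adjusted p = 0.00586), and the difference between model and control skin was 0.80 (SE 0.24, adjusted p = 0.0382). At day 10, Ifih1 had 5.13, 7.3, 6.07 and 6.16 FPKM in treatment skin, 6.77, 6.96, 6.77 and 5.65 FPKM in model skin and 4.03, 4.29, 3.42 and 4.58 FPKM in control skin. Levels were lowest in control skin, and model replicate 4 lay below the other 3 model libraries. Eif2ak2, the kinase PKR that stops translation in infected cells, had 3.32, 5.19, 5.07 and 6.88 FPKM in treatment skin, 8.25, 8.31, 19.4 and 13.9 FPKM in model skin and 8.4, 5.65, 5.92 and 7.34 FPKM in control skin at day 15. All treatment libraries lay below all model libraries, and 3 of the 4 were also below the lowest control library. Eif2ak2 was called lower in treatment than in model skin, with a difference of -1.09 (SE 0.20, adjusted p = 0.00171), and the difference between model and control skin was 0.72 (SE 0.20, adjusted p = 0.0306). At day 10, Eif2ak2 had 7.19, 9.1, 6.87 and 8.61 FPKM in treatment skin, 7.81, 8.64, 8.01 and 8.29 FPKM in model skin and 6.19, 6.11, 5.39 and 5.36 FPKM in control skin. Its control libraries were the lowest, with a difference of 0.44 between model and control skin (SE 0.20, adjusted p = 0.14).

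Samd9l, an antiviral factor that restrains translation, had 3.03, 6.43, 5.01 and 7.84 FPKM in treatment skin, 10.7, 13.1, 38.2 and 23.3 FPKM in model skin and 11.9, 9.13, 5.91 and 8.91 FPKM in control skin at day 15. All treatment libraries were below all model libraries, and treatment replicates 1 and 3 were below every control library. Samd9l was called lower in treatment than in model skin, with a difference of -1.66 (SE 0.29, adjusted p = 0.00124), and the difference between model and control skin was 1.03 (SE 0.29, adjusted p = 0.0305). At day 10, Samd9l had 7.93, 11.3, 7.32 and 9.99 FPKM in treatment skin, 8.54, 10.2, 10.2 and 10.2 FPKM in model skin and 6.15, 6.17, 5.13 and 4.41 FPKM in control skin. All DHT-injected mice were above all control mice. Ifi44, a gene induced by type I interferon, had 0.673, 1.76, 0.925 and 2.01 FPKM in treatment skin, 2.23, 2.39, 10.6 and 6.51 FPKM in model skin and 1.98, 1.22, 1.02 and 1.42 FPKM in control skin at day 15. Its model libraries lay above all treatment and control libraries, and the difference between treatment and model skin was -1.29 (SE 0.29, adjusted p = 0.00597). At day 10, Ifi44 had 0.963, 1.75, 1.15 and 1.29 FPKM in treatment skin, 1.32, 1.43, 1.48 and 1.11 FPKM in model skin and 0.659, 0.353, 0.941 and 0.483 FPKM in control skin. Treatment and model levels overlapped and stood above all control levels.

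Rsad2, also called viperin, makes a chain-terminating nucleotide that blocks viral polymerases, and Cmpk2, its neighbour in the genome, is a nucleotide kinase. Rsad2 had 3.72, 10.9, 2.02 and 9.28 FPKM in treatment skin, 8.04, 9.19, 90.7 and 38 FPKM in model skin and 10.3, 3.89, 3.21 and 8.31 FPKM in control skin at day 15. The widest gap among these libraries lay between model replicate 3 and all others, and treatment replicates 2 and 4 exceeded model replicates 1 and 2. Rsad2 was called lower in treatment than in model skin, with a difference of -1.89 (SE 0.60, adjusted p = 0.0325), and the difference between model and control skin was 1.81 (SE 0.60, adjusted p = 0.0559). The call of Rsad2 was lost in 4 of the 8 fits without 1 library, with adjusted p up to 0.121, and in the fit of only the groups compared. At day 10, Rsad2 had 2.35, 12.1, 12 and 6.42 FPKM in treatment skin, 2.89, 5.17, 5.28 and 3.14 FPKM in model skin and 1.37, 1.97, 1.7 and 1.28 FPKM in control skin. Treatment replicates 2 and 3 were the highest there, and every DHT-injected mouse was above the control mice, with a difference of 0.69 between treatment and model skin (SE 0.60, adjusted p = 0.729). Cmpk2 had 2.47, 4.01, 2.05 and 4.1 FPKM in treatment skin, 4.39, 5.75, 23.1 and 15.6 FPKM in model skin and 5.88, 3.86, 2.56 and 4.04 FPKM in control skin at day 15. Treatment and model libraries did not overlap. Cmpk2 was called lower in treatment than in model skin, with a difference of -1.44 (SE 0.36, adjusted p = 0.00995), and the difference between model and control skin was 1.15 (SE 0.36, adjusted p = 0.0442). At day 10, Cmpk2 had 2.55, 6.15, 6.73 and 4.25 FPKM in treatment skin, 3.14, 3.6, 3.79 and 3.02 FPKM in model skin and 1.98, 3.15, 1.86 and 1.54 FPKM in control skin. Control replicate 2 overlapped with both other groups.

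Zbp1, a sensor of Z-form nucleic acids that can start necroptosis, and Bst2, the tetherin that holds budding viruses at the membrane, were not called between treatments at day 15. Zbp1 had 6.54, 21.2, 4.83 and 21.7 FPKM in treatment skin, 11.7, 10.5, 60.9 and 41.4 FPKM in model skin and 21.4, 15.7, 5.64 and 16.9 FPKM in control skin at day 15. Treatment replicates 2 and 4 and 3 of the control libraries lay above model replicates 1 and 2, and the difference between treatment and model skin was -1.03 (SE 0.51, adjusted p = 0.154). At day 10, Zbp1 had 5.43, 13.2, 10.6 and 5.8 FPKM in treatment skin, 6.48, 9.89, 7.83 and 6.39 FPKM in model skin and 2.04, 2.57, 2.47 and 2.22 FPKM in control skin. The control libraries were below all others, and the difference between model and control skin was 1.36 (SE 0.51, adjusted p = 0.077). Bst2 had 23.4, 51.2, 12.9 and 45.2 FPKM in treatment skin, 28.3, 31, 111 and 67.4 FPKM in model skin and 52.3, 28.8, 20.6 and 25.7 FPKM in control skin at day 15. The groups overlapped, with a difference of -0.79 between treatment and model skin (SE 0.40, adjusted p = 0.167). At day 10, Bst2 had 22.8, 28.3, 21 and 22.6 FPKM in treatment skin, 19.2, 35.8, 25.6 and 24.7 FPKM in model skin and 13.3, 13.6, 15 and 8.85 FPKM in control skin. All DHT-injected mice lay above the control mice. Among the other 6 members of this role, Trim30a, Rtp4, Xaf1 and Ifi35 were called lower in treatment than in model skin at day 15, with differences of -1.32, -1.19, -0.98 and -0.58, while Isg20 and Ifi27 were not called. Ifi27 showed the smallest differences of all members between model and control skin, 0.07 at both days.

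Isg15 encodes a ubiquitin-like protein that is attached to other proteins, Herc6 is the mouse ligase that attaches it, and Usp18 removes it and also restrains signalling from the type I receptor. Parp9 and Dtx3l form a complex of an ADP-ribose enzyme and a ubiquitin ligase, and Parp14 is a related enzyme. All 6 genes of this role were called lower in treatment than in model skin at day 15, with a median of -1.02, and 3 (Dtx3l, Parp9 and Parp14) were called higher in model than in control skin. Isg15 had 8.78, 16.9, 5.86 and 21.2 FPKM in treatment skin, 17.4, 13.8, 128 and 64.3 FPKM in model skin and 28.1, 13.2, 6.41 and 14.6 FPKM in control skin at day 15. Treatment replicates 2 and 4 lay within the range of the model libraries, and model replicate 3 was the highest of all. Isg15 was called lower in treatment than in model skin, with a difference of -1.61 (SE 0.54, adjusted p = 0.0411), and the call was lost in 4 of the 8 fits without 1 library, with adjusted p up to 0.15. At day 10, Isg15 had 8.36, 22.6, 15.3 and 11.8 FPKM in treatment skin, 8.38, 14.1, 10.7 and 9.36 FPKM in model skin and 4.24, 5.72, 4.76 and 3.3 FPKM in control skin. Control levels were below all others, with a difference of 1.43 between treatment and control skin (SE 0.54, adjusted p = 0.119).

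Usp18 had 6.09, 8.4, 2.82 and 7.73 FPKM in treatment skin, 5.63, 9.89, 29.7 and 17.4 FPKM in model skin and 8.4, 3.95, 5.49 and 5.54 FPKM in control skin at day 15. The ranges overlapped, as model replicate 1 was below 3 of the treatment libraries. Usp18 was called lower in treatment than in model skin, with a difference of -1.05 (SE 0.36, adjusted p = 0.0437), and the call was lost in 5 of the 8 fits without 1 library. At day 10, Usp18 had 4.08, 8.46, 7.25 and 4.32 FPKM in treatment skin, 5.15, 8.71, 5.71 and 4.75 FPKM in model skin and 3.54, 3.96, 3.16 and 3.99 FPKM in control skin. Control levels were below all others. Herc6 had 1.48, 2, 1.16 and 2.77 FPKM in treatment skin, 2.7, 2.99, 12.2 and 7.55 FPKM in model skin and 3.81, 2.56, 1.29 and 2.68 FPKM in control skin at day 15. Treatment replicate 4 lay above model replicate 1, and the difference between treatment and model skin was -1.19 (SE 0.30, adjusted p = 0.0111). At day 10, Herc6 had 1.34, 2.6, 1.76 and 1.7 FPKM in treatment skin, 1.67, 2.54, 2.6 and 1.71 FPKM in model skin and 0.995, 1.06, 0.995 and 0.775 FPKM in control skin. Levels were lowest in control skin. Dtx3l had 4.73, 8.93, 3.56 and 7.42 FPKM in treatment skin, 8.26, 8.68, 21.8 and 15.5 FPKM in model skin and 8.71, 6.95, 3.97 and 6.11 FPKM in control skin at day 15. Treatment replicate 2 lay above model replicates 1 and 2. Dtx3l was called lower in treatment than in model skin, with a difference of -0.99 (SE 0.26, adjusted p = 0.013), and the difference between model and control skin was 0.91 (SE 0.26, adjusted p = 0.0325). At day 10, Dtx3l had 5.24, 7.52, 6.87 and 5.82 FPKM in treatment skin, 5.6, 7.63, 6.06 and 6.41 FPKM in model skin and 4.55, 4.12, 3.49 and 3.97 FPKM in control skin. Treatment and model levels were above all control levels.

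The GBP and IRG genes encode GTPases that attack the vacuoles of intracellular microbes and are known as strong targets of interferon gamma. Of the 8 members, 2 (Gbp7 and Gbp9) were called lower in treatment than in model skin at day 15, with a median of -0.89 over the role, and none was called between model and control skin at either day. All 8 were called higher at day 15 than at day 10 in model skin and 5 of 8 in control skin, against 1.62% and 1.48% of all genes. In model skin none was called in a fit of only the groups compared or without model replicate 3 of day 15. Voom called none in control skin. The day 10 libraries of both comparisons are those with kidney transcripts. Gbp2 had 15.1, 57.1, 14.4 and 55.4 FPKM in treatment skin, 28.8, 22.2, 98.3 and 78.4 FPKM in model skin and 45.2, 54.1, 11.4 and 32.5 FPKM in control skin at day 15. Each group held low and high mice, and treatment replicates 2 and 4 and control replicates 1, 2 and 4 were above model replicates 1 and 2. The difference between treatment and model skin was -0.69 (SE 0.50, adjusted p = 0.342). At day 10, Gbp2 had 9.72, 19.2, 15.3 and 10.7 FPKM in treatment skin, 10.6, 15.3, 17.2 and 11.1 FPKM in model skin and 9.27, 8.54, 6.86 and 7.21 FPKM in control skin. Levels in control skin were below all others, with a difference of 0.68 between model and control skin (SE 0.50, adjusted p = 0.38).

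Irgm1, which regulates the other IRG proteins, had 9.79, 25.7, 8.07 and 26.2 FPKM in treatment skin, 18.8, 18.3, 56.8 and 41.7 FPKM in model skin and 19.4, 26.2, 8.79 and 15.2 FPKM in control skin at day 15. The groups overlapped, and the difference between treatment and model skin was -0.93 (SE 0.38, adjusted p = 0.0879). At day 10, Irgm1 had 7.5, 14.5, 14.3 and 10.5 FPKM in treatment skin, 10.1, 14.3, 12.5 and 10.8 FPKM in model skin and 6.74, 6.36, 5.43 and 4.59 FPKM in control skin. The control libraries were the lowest, with a difference of 0.93 between model and control skin (SE 0.38, adjusted p = 0.105). Gbp7 was the only member of this role without overlap of treatment and model libraries at day 15, with 2.07, 5.46, 4.07 and 7.94 FPKM in treatment skin, 9.94, 10.2, 21 and 19.6 FPKM in model skin and 8.96, 11.3, 3.96 and 6.92 FPKM in control skin at day 15. The highest treatment library was below the lowest model library, but control replicate 2 was above model replicates 1 and 2. Gbp7 was called lower in treatment than in model skin, with a difference of -1.49 (SE 0.29, adjusted p = 0.00247). At day 10, Gbp7 had 3.93, 5.55, 3.9 and 4.96 FPKM in treatment skin, 4.94, 6.76, 5.67 and 5.77 FPKM in model skin and 3.61, 3.76, 2.98 and 3.01 FPKM in control skin. The control libraries were below all treatment and model libraries. Of the 50-base windows of Gbp7, 12.7% occur in other genes, as do 70.7% of those of Gbp6, whose counts are therefore uncertain.

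The GTPases did not follow the IFIT genes in every mouse. Relative to the control mean of day 10, the median GTPase was 0.54, 1.81, 0.42 and 1.92 log2 units higher in the treatment libraries of day 15, and the median IFIT gene 0.1, 1.04, 0.06 and 1.3 higher. In the model libraries of day 15 the GTPases were 1.44, 1.38, 2.88 and 2.63 higher and the IFIT genes 1.26, 1.56, 3.53 and 3.12 higher. In the control libraries of day 15 the GTPases were 1.39, 1.99, 0.33 and 1.14 higher and the IFIT genes 1.51, 0.84, 0.33 and 0.82 higher. All 4 treatment libraries, control replicates 2 and 4 and model replicate 1 had a GTPase value above their IFIT value, and model replicates 2, 3 and 4 and control replicate 1 had the IFIT value above. At day 10 the GTPases were 0.23 to 0.61 higher in treatment and 0.42 to 0.86 higher in model libraries, where the IFIT genes were 0.25 to 1.64 and 0.83 to 1.22 higher. The OAS genes of the same libraries were 1.09 to 1.89 higher in treatment and 0.94 to 1.48 higher in model skin. The difference between roles was not tested.

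**Figure D4:**
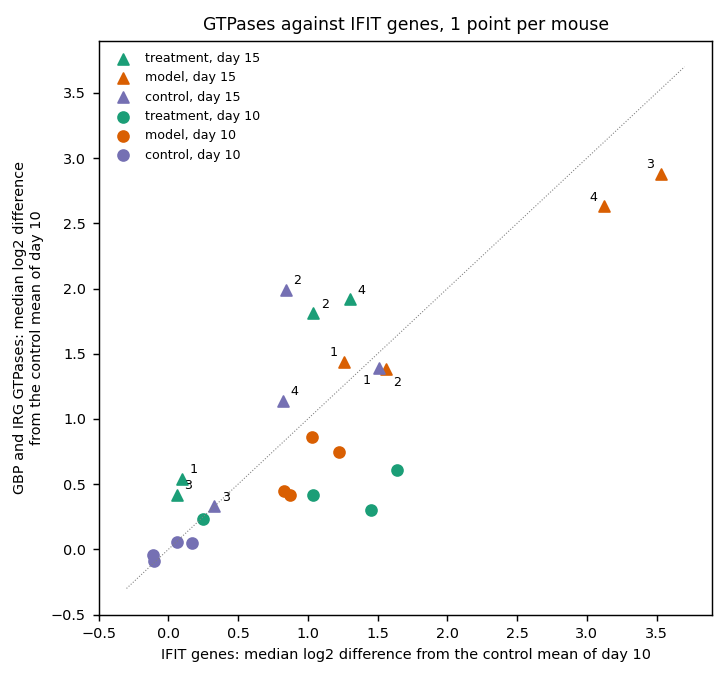
Median log2 difference from the control mean of day 10 for 8 GBP and IRG GTPases (y axis) against 4 IFIT genes (x axis), 1 point per mouse, with triangles for day 15 (numbered by replicate) and circles for day 10. On the dotted line both are equal. Model replicates 3 and 4 of day 15 lie at 3.53 and 3.12 on the IFIT axis, and control replicate 2 and treatment replicates 2 and 4 of that day lie above the line.

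Antigen processing was the role with the smallest median differences at day 15, at -0.43 between treatment and model skin and 0.41 between model and control skin. Psmb8 and Psmb9 are subunits of the immunoproteasome, and Tap1 carries peptides to MHC class I molecules. None of the 3 genes was called in any comparison between treatments. Psmb8 had 24.7, 61.2, 17.4 and 56.3 FPKM in treatment skin, 34, 33.6, 81.8 and 55.2 FPKM in model skin and 54, 37.6, 24 and 32.7 FPKM in control skin at day 15. The groups overlapped throughout, and the difference between treatment and model skin was -0.43 (SE 0.33, adjusted p = 0.363). At day 10, Psmb8 had 26.2, 27.2, 30.1 and 21 FPKM in treatment skin, 21.7, 30.7, 27.2 and 27.5 FPKM in model skin and 18.1, 24.8, 15.9 and 15.8 FPKM in control skin. Control replicate 2 lay within the range of the other groups. Tap1 had 11.9, 27.2, 8.93 and 24.3 FPKM in treatment skin, 14.2, 13.1, 39.5 and 25.8 FPKM in model skin and 18.9, 18.3, 11 and 16.7 FPKM in control skin at day 15. Model replicates 1 and 2 were below treatment replicates 2 and 4 and below control replicates 1, 2 and 4. At day 10, Tap1 had 11.4, 12.6, 13.8 and 11.1 FPKM in treatment skin, 11, 15.1, 11.6 and 12.7 FPKM in model skin and 10.6, 9.26, 8.76 and 10.9 FPKM in control skin. All treatment and model libraries were above all control libraries, by 0.28 for treatment (SE 0.30, adjusted p = 0.547) and by 0.32 for model skin (SE 0.30, adjusted p = 0.508). Psmb9 ranged from 6.08 to 21 FPKM in treatment, 9.92 to 29.8 FPKM in model and 9.54 to 14.4 FPKM in control skin of day 15.

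Transcripts of the interferons themselves were scarce. Ifnb1, encoding interferon beta, had 5 recovered reads in model replicate 3 of day 15, 1 read each in model replicates 3 and 4 of day 10 and 0 in the other 21 libraries. Ifng, encoding interferon gamma, had 1, 24, 5 and 11 reads in treatment, 14, 0, 42 and 19 reads in model and 1, 19, 6 and 2 reads in control libraries of day 15, and 0 to 2 reads in each library of day 10. The highest Ifng counts of each group at day 15 were in treatment replicate 2, model replicate 3 and control replicate 2. Ifnk, an interferon of keratinocytes, had 0 to 4 reads in all libraries. These 3 genes did not reach the filter and were not tested, and the other 7 interferon genes of the list were not analysed here. The cytokine Il15, which interferon induces, had 1.46, 1.5, 1.01 and 1.85 FPKM in treatment skin, 1.73, 2.45, 6.78 and 3.35 FPKM in model skin and 1.33, 1.22, 1.21 and 1.24 FPKM in control skin at day 15. Model replicates 3 and 4 were the highest of Il15, and it was called lower in treatment than in model skin (-0.79, SE 0.21, adjusted p = 0.0122) and higher in model than in control skin (0.91, SE 0.21, adjusted p = 0.013).

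A list of 13 genes held receptors, kinases and STATs together with Socs1 and Socs3. Of these 13, 2 were called lower in treatment than in model skin at day 15, Stat3 and Tyk2, against 9.32% of all tested genes. In model against control skin 4 were called higher at day 15, Ifnar2, Il10rb, Jak1 and Tyk2, and 3 at day 10, Ifngr1, Il10rb and Jak1. Of all tested genes, 4.23% were called higher in model than in control skin at day 15 and 6.79% at day 10. The same shares apply to the counts of the next 2 lists. Of 15 sensors and adaptors, 5 were called lower in treatment than in model skin at day 15, Ddx58, Tlr3, Tlr7, Cgas and Tbk1. The RNA sensor Tlr3 differed by -0.64 (adjusted p = 0.00124), and Ddx58, the sensor RIG-I, by -0.88 (adjusted p = 0.0192). In model against control skin 5 of them were called higher at day 15 and 2 at day 10, Tlr7 and Tlr9. Of 63 other interferon-stimulated genes, 21 were called lower in treatment than in model skin at day 15, with a median of -0.66. In model against control skin 11 of the 63 were called higher at day 15 and 15 at day 10. None of these genes was called between treatment and model skin at day 10.

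Trim34a, of the TRIM family, had the smallest adjusted p among the 63 for treatment against model skin at day 15 (difference -0.99, adjusted p = 0.000838). Cxcl10, a chemokine that draws T cells, had 19.2, 43.8, 1.74 and 29.2 FPKM in treatment skin, 8.31, 15, 127 and 79.2 FPKM in model skin and 8.97, 7.38, 2.4 and 6.01 FPKM in control skin at day 15. Model replicates 3 and 4 were the highest and treatment replicates 1, 2 and 4 lay above all control libraries. Cxcl10 was called higher in model than in control skin (2.40, SE 0.77, adjusted p = 0.0493) and not called between treatment and model skin (-1.09, SE 0.77, adjusted p = 0.322). Its relative Cxcl9, a target of interferon gamma, had 1.99, 8.95, 3.58 and 14.7 FPKM in treatment skin, 3.22, 2.71, 19.6 and 19.7 FPKM in model skin and 18.2, 30.9, 1.84 and 13.6 FPKM in control skin at day 15. Control replicates 1 and 2 bracketed the model replicates 3 and 4 for Cxcl9, and no difference between treatments was called. Of 7 MHC class I genes, none was called between treatment and model skin at either day, and B2m alone was called higher in model than in control skin, at day 10 (0.70, adjusted p = 0.0406).

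Sums of macrophage, NK cell, neutrophil and monocyte markers were highest in model replicate 3 of day 15, the library in which most members were also highest. That library also had the lowest sum of keratinocyte markers, at 841 FPKM. Its T cell sum, 18.3 FPKM, was the highest of day 15 and just below the 18.4 FPKM of model replicate 2 of day 10. The mast cell sum was not highest there. The summed FPKM of 10 macrophage markers was 1555, 2722, 692 and 2130 in treatment, 1940, 2364, 4008 and 2195 in model and 1966, 1585, 968 and 1528 in control libraries of day 15. At day 10 it was 1366 to 1752 in treatment, 1495 to 2176 in model and 598 to 968 in control libraries. Every DHT-injected mouse of day 10 was above every control mouse in this sum. Of the 10 markers, 3 were called lower in treatment than in model skin at day 15, against 9.32% of all tested genes. In model against control skin 3 at day 15 and 9 at day 10 were called higher, against 4.23% and 6.79% of all tested genes. None of the 10 was at 0 in any group. The 6 NK cell markers summed to 1.34 to 16.9 FPKM in treatment, 6.58 to 47.7 FPKM in model and 2.94 to 20.2 FPKM in control libraries of day 15. The 7 neutrophil markers summed to 59.7 to 462 FPKM in treatment, 144 to 2972 FPKM in model and 68.1 to 297 FPKM in control libraries of that day, and of them Ly6g was at 0 in all control libraries of day 10. The 3 monocyte markers summed to 17.5 to 136 FPKM in treatment, 54 to 363 FPKM in model and 26.9 to 100 FPKM in control libraries of day 15. In model against control skin at day 15, 1 of 5 tested neutrophil markers was called higher, and no NK cell or monocyte marker. Between treatment and model skin 1 neutrophil and 1 monocyte marker were called lower, and no NK cell marker. T cell sums overlapped, and no T cell or mast cell marker was called in either comparison at day 15. Plasmacytoid dendritic cell markers, which include the member Bst2, summed to 42.9 to 69.2 FPKM in treatment, 44.9 to 133 FPKM in model and 40.5 to 69.3 FPKM in control libraries of that day. Bst2 alone had 28.3, 31, 111 and 67.4 FPKM in the model libraries, where the sums were 44.9, 66.3, 133 and 91.4 FPKM. This sum is therefore not separate from the members. Siglech and Ccr9 of this list did not reach the filter. B cell markers summed to at most 0.531 FPKM in any library.

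Markers of resident skin cells differed between the groups as well. The 5 hair follicle markers summed to 8686 to 10386 FPKM in treatment, 4238 to 7536 FPKM in model and 7240 to 9558 FPKM in control libraries of day 15. All 5 were called higher in treatment than in model skin at day 15, with a median difference of 0.78, and every treatment library was above every model library in the sum. A fit of only these 8 libraries called 0.0% of all genes. In model against control skin 2 of the 5 follicle markers were called lower at day 15 and 4 at day 10. The sums at day 10 were 4018 to 7146 FPKM in model and 6322 to 10358 FPKM in control libraries. The 5 fibroblast markers summed to 1970 to 6569 FPKM in treatment, 5452 to 9612 FPKM in model and 3292 to 3966 FPKM in control libraries of day 15, and 1970 FPKM belonged to treatment replicate 3. Of them, 2 were called lower in treatment than in model skin at day 15, against 9.32% of all tested genes. In model against control skin 2 of the fibroblast markers were called higher at each day, against 4.23% of all tested genes at day 15 and 6.79% at day 10. Of the 6 keratinocyte markers, 3 at day 15 and 1 at day 10 were called lower in model than in control skin, and none was called between treatment and model skin. In model skin 3 of the 6 were called lower at day 15 than at day 10. For the follicle and keratinocyte counts, the share of all genes called in the same direction is not given here. The part of these cell types in the differences of the members was not tested.

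**Figure D5:**
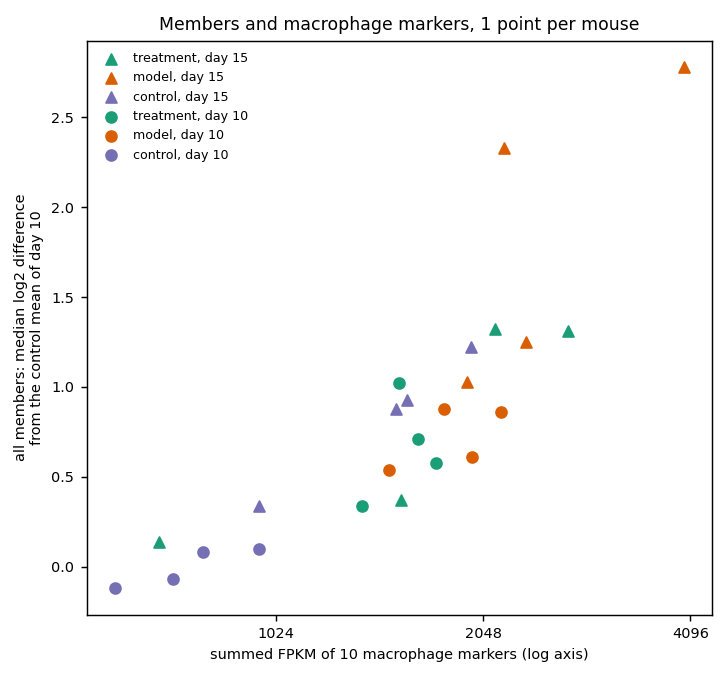
Median log2 difference of 45 members from the control mean of day 10 (y axis) against the summed FPKM of 10 macrophage markers (x axis, log scale), 1 point per mouse, with triangles for day 15 and circles for day 10. The control libraries of day 10 are low on both axes, and model replicate 3 of day 15, at 4008 FPKM and 2.78, is highest on both.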

How the data were processed

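Skin poly(A) RNA of 24 mice was sequenced after TRIzol extraction and VAHTS library preparation, per the labels' protocols. The deposited table holds FPKM values, which the authors normalised for gene length and library size. The submitters' processing notes name fastp, HISAT2, HTSeq and the build GRCm39, whose versions are not given in the sources used here. FPKM steps gave whole reads for 18714 of 18715 genes (99.99%, tolerance 0.01 reads, or 0.05 reads above 1000 reads), with 36688186 to 40710395 reads per library.

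The 13039 genes whose FPKM was 1 or more in 4 or more libraries were tested as log2(FPKM + 1) with limma 3.58.1 in R 4.3.3, using 6 group means, an intensity trend, robust moderation and Benjamini-Hochberg adjustment over all genes at 0.05. The added constant shrinks the differences of low genes. The scripts were tested on simulated data. Members, roles and lists were chosen with earlier results of these data known. Values in every library are given for the 14 called members with the smallest adjusted p in the 6 treatment comparisons and for a panel drawn from each role, 25 members in all. Mx1 and Mx2 are not analysed here. A pathway gene is not reported here. Alternatives were another pseudocount, filter, scaling or set of groups, a replicate block, voom on recovered reads and leaving out 1 library. The fit without treatment libraries with low Y-linked transcripts (under 75% of the median) was chosen after seeing the data. Voom called 23 members between treatment and model skin at day 15, and 16 at day 15 and 1 at day 10 between model and control skin. Labels do not tie equal replicate numbers together.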

Additional observations from a re-analysis of the deposited data

Results flagged for a closer look

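Among 150 groups of 4 libraries (25 members in 6 groups), and the median levels of each role, the following single libraries lay far from the other 3 of their group, with a gap to the nearest of them above Dixon's critical value for 4 samples as a share of the range of the group. In model skin of day 10, Ifit2 was highest in replicate 2 at 8.65 FPKM, Irf7 was highest in replicate 2 at 28.1 FPKM, Ifih1 was lowest in replicate 4 at 5.65 FPKM and Samd9l was lowest in replicate 1 at 8.54 FPKM. In control skin, Ifit3b was highest in replicate 1 of day 15 at 3.46 FPKM, and Irf1 was lowest in replicate 3 of day 10 at 4.5 FPKM. The median OAS gene was lowest in control replicate 4 of day 10, at -0.21 log2 units from the control mean. By chance about 5% of groups give such a value.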

How the results depend on the processing

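Counts of called members are given here for settings that moved them by more than 1.5 times. For treatment against model skin at day 15 (26), a fit of only those groups gave 0, and leaving out 1 library gave 14 to 33. For model against control skin at day 15 (16), no filter gave 9, only those groups 1, and leaving out 1 library 1 to 31. At day 10 (4) a pseudocount of 0.1 gave 8, no filter 2, only those groups 40, voom 1, and leaving out 1 library 1 to 4. For treatment against control skin at day 10 (3) the pseudocount gave 6, only those groups 36, voom 0, and leaving out 1 library 0 to 3, and at day 15 (0) leaving out 1 library gave 0 to 1. For day 15 against day 10 in control skin (9), a mean FPKM of at least 5 gave 4, median-of-ratios scaling 5, only those groups 31, voom 0, and leaving out 1 library 0 to 15. In model skin (23) no filter gave 15, only those groups 0, and leaving out 1 library 0 to 38, and in treatment skin (0) scaling to a common total gave 1 and leaving out 1 library 0 to 2. For the change of the treatment-model difference (0), the fit without low Y-linked libraries gave 1 and leaving out 1 library 0 to 4. Without 1 library, treatment against model skin at day 10 and the change of the model-control difference gave 0 to 0. With the replicate number as a block, the count was 2 for model against control and 1 for treatment against control skin at day 10. It was 4 in control and 14 in model skin between days. Correlations of same-numbered libraries ran from -0.63 to 0.51. With 4 libraries per group they cannot decide whether equal numbers belong together. No called difference of a named member changed sign under any of these settings. For the 25 named members in the 6 treatment comparisons, differences that were not called changed sign in 93 combinations of gene, comparison and setting. A mean FPKM of at least 5 left 34 members. The cause of these shifts was not tested. The values of Ifng and Ifnb1, all under 1 FPKM, rest on few reads, at most 42 and 5 in any library.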
